A study of Gallus gallus with 5 samples.

Results

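The genes described here encode co-chaperones and the cytosolic chaperonin of the chicken (Gallus gallus): proteins with a J domain, the subunits of the CCT chaperonin (also called TRiC), the BAG co-chaperones and the prefoldin subunits. They were chosen by gene symbol (DNAJA, DNAJB and DNAJC genes, CCT2 to CCT8 with TCP1, BAG1 to BAG6 and PFDN1 to PFDN6); the symbol rule uses no measured value, but it was set with earlier results of these data known. Of 59 such symbols in the RefSeq gene table, 48 were matched to deposited values, out of 10102 matched genes in all. They comprised 34 of 42 J-domain genes, 7 of 8 chaperonin genes, 3 of 5 BAG genes and 4 of 4 prefoldin genes. CCT3, BAG3, BAG4, DNAJA3, DNAJB1, DNAJB2, DNAJC1, DNAJC5B, DNAJC5G, DNAJC8 and DNAJC14 were not analysed here.

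The series profiled poly(A)-selected RNA of the blastoderm, the embryo as a flat cell layer on the yolk when the egg is laid, which can pause its development in the cool. There were 5 libraries, 1 per condition: unstored blastoderms, blastoderms incubated for 4 h at 37 °C, and blastoderms stored for 7 days at 4, 16 or 24 °C. The labels do not state the breed, the stage or how many blastoderms entered a library. With 1 library per condition there is no replicate error, so no test was made and every difference lies between libraries.

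Chaperones help other proteins to fold. HSP70 proteins bind unfolded stretches in a cycle driven by ATP: a J-domain protein brings the client and starts ATP hydrolysis, and nucleotide exchange factors, among them BAG proteins, release ADP and the client. Actin, tubulin and some other proteins reach their fold inside the CCT chaperonin, a double ring of related subunits, to which prefoldin hands newly made chains. Several of these genes are targets of the heat shock response, and those of the endoplasmic reticulum respond to unfolded protein there. The sequences of these genes and their promoters were not used here.

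Values are FPKM, fragments scaled to transcript length and to the mapped fragments of the library, which allows genes to be compared within a library. Differences are log2 ratios of FPKM + 1, which understate the change of low genes, and a size of at least 1 was counted as at least 2-fold. FPKM summed to between 333528 and 389061 per library, so differences between libraries also depend on how the totals are scaled. Of the 48 members, 46 had FPKM of at least 1 in 1 or more libraries and 42 in all 5. DNAJB8 and DNAJC22 stayed at or below 0.34 and 0.99 and are left out of the counts. Against unstored, the median of all genes was itself shifted by 0.12 after incubation, 0.10 for 4 °C, -0.04 for 16 °C and 0.04 for 24 °C.

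The tissue label was checked against markers. Of 8 markers of the blastoderm and epiblast, NANOG (FPKM 223 to 526), EPCAM (391 to 647), DNMT3B (129.8 to 517), SOX3 (27.3 to 109), LIN28A (14.2 to 88.1) and CDH1 (12.1 to 14.98) were present in all libraries, SOX2 stayed at or below 0.33, and POU5F3 was not analysed here. Their summed FPKM was 1838 unstored, 1258 after incubation, and 1819, 1022 and 839 for storage at 4, 16 and 24 °C. The summed FPKM of 6 measured hypoblast and endoderm markers was 58.5, 112.6, 127.9, 40.1 and 65.0 in the same order. Globin genes did not exceed 0.3, and 4 skeletal muscle markers summed to at most 1.5. The summed FPKM of 3 white blood cell markers lay between 2.25 and 4.78, and that of the germ cell markers DDX4 and DAZL between 6.74 and 15.5. Transferrin (TF), a major egg white protein that other tissues also make, had 1.71 without storage and 14.6 after 24 °C, with ovalbumin (OVAL) at or below 0.05.

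Against the unstored library the co-chaperone and chaperonin genes shifted little at 4 °C and were more often lower than higher at 16 and 24 °C, where the chaperonin stood lowest of the 4 families. At 16 °C, 8 of 46 members (17.4%) were at least 2-fold lower and 3 (6.52%) higher, where 8.75% of all genes were lower and 7.66% higher by that size. At 24 °C, 8 of 46 (17.4%) were lower and 1 (2.17%) higher, beside 8.37% and 10.5% of all genes. After incubation 3 of 46 (6.52%) were higher and 1 (2.17%) lower, shares near the 8.48% and 2.55% of all genes. At 4 °C none of 45 was at least 2-fold different, beside 0.637% of all genes higher and 0.0909% lower. The members' medians were -0.13 after incubation, 0.11 at 4 °C, -0.48 at 16 °C and -0.52 at 24 °C. In RNA from whole blastoderms, fewer cells of a type and less RNA per cell cannot be told apart. Of the 6 epiblast markers present, 4 were also at least 2-fold lower at 16 and 24 °C. EPCAM was lower by less (-0.24 and -0.59), and CDH1 stood at -0.07 and 0.21. The part of these markers in the differences was not tested.

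**Figure D1:**
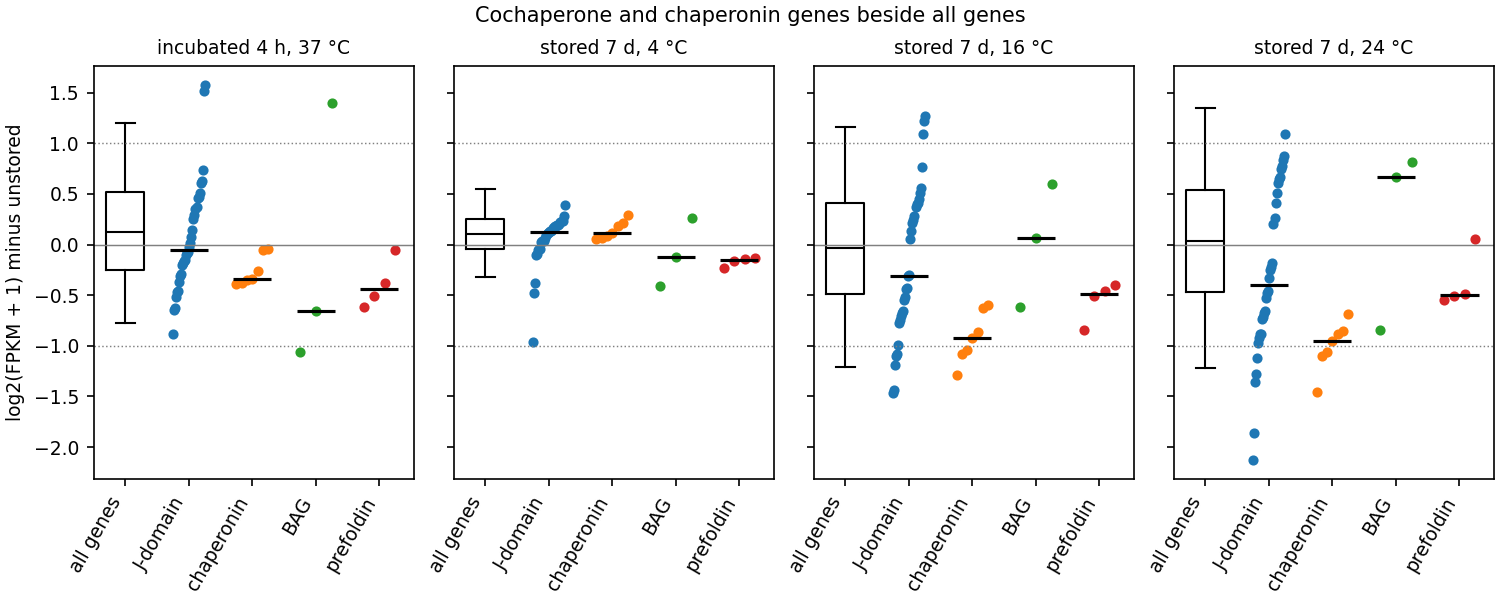
Each panel shows 1 library against the unstored library as the difference in log2(FPKM + 1). The box gives the quartiles of all genes with whiskers at the 5th and 95th percentiles, points are genes of the 4 families, black bars are their medians, and dotted lines mark 2-fold. The 7 chaperonin points lie below 0 in both warmer storage panels, with medians of -0.92 and -0.95, while J-domain points spread to both sides.

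J-domain genes were expressed over a wide range. In the unstored library the 32 that passed the filter ran from 0.14 for DNAJB5 to 149.6 for DNAJA2, with a median of 15.1. Their summed FPKM was 789 in the unstored library, 825 after incubation, 856 at 4 °C, 635 at 16 °C and 588 at 24 °C. HSPA8, the constitutive cytosolic HSP70 with which many of them work, had 2455 in the unstored library, more than all of them together. The J-domain medians were -0.05 after incubation, 0.13 at 4 °C, -0.31 at 16 °C and -0.40 at 24 °C. Single genes differed in both directions. At 16 °C, 5 of the 32 were at least 2-fold lower and 3 higher, beside 8.75% and 7.66% of all genes. At 24 °C, 5 were lower and 1 higher, beside 8.37% and 10.5% of all genes. The lowest value was at 24 °C in 14 of the 32. That library also had the smallest FPKM total, 333528, and the share of all genes lowest there was not counted.

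Among J-domain proteins of the cytosol and nucleus, DNAJA1 stood out by incubation and DNAJA4 by storage. DNAJA1, a co-chaperone of HSPA8 with a zinc-binding substrate domain, had FPKM 38.5 in the unstored library, 116.8 after incubation, 44.0 at 4 °C, 23.8 at 16 °C and 30.4 at 24 °C. It was 1.58 higher after incubation on the log2 scale, and 7556 of 7700 genes had a smaller ratio. At 16 and 24 °C its log2 ratios were -0.67 and -0.33. HSPA8 itself was 4200 after incubation (log2 ratio 0.77), 949 at 16 °C (-1.37) and 1085 at 24 °C (-1.18).

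DNAJA2, a close relative of DNAJA1, was the highest J-domain gene in every library, with 149.6, 133.2, 169.8, 121.0 and 125.5 in the unstored, incubated, 4, 16 and 24 °C libraries. Its log2 ratios against unstored stayed between -0.30 and 0.18. DNAJA4, of the same class, had 90.2 in the unstored library, 84.0 after incubation, 109.96 at 4 °C, 39.1 at 16 °C and 36.5 at 24 °C. Its log2 ratios of -1.19 and -1.28 at 16 and 24 °C were past 2-fold. DNAJB6, which keeps aggregation-prone proteins soluble, went the same way by less, from 56.6 to 38.4 and 35.5 (-0.55 and -0.66). DNAJC7, a co-chaperone with tetratricopeptide repeats that bind HSP70 and HSP90, went from 18.1 to 10.7 and 9.36 (-0.70 and -0.88).

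DNAJB4, a cytosolic J-domain protein related to DNAJB1, was the opposite case. It had 21.9 in the unstored library, 22.0 after incubation, 15.4 at 4 °C, 52.3 at 16 °C and 39.6 at 24 °C. The ratio at 16 °C was 1.22 and that at 24 °C 0.83. Both of its matched transcripts were higher at 16 °C, 1 of them 39.1 against 17.7 unstored and the other 13.2 against 4.16. The related DNAJB5 was far lower in level, from 0.14 to 1.43 at 16 °C (1.09), a size that rests on the pseudocount at such values. DNAJB13, known from cilia and sperm flagella, reached at most 1.38 and was listed at 0 at 4 °C. Of the 8 genes of this group, 1 was at least 2-fold higher after incubation, 2 were higher and 1 lower at 16 °C, and 1 was lower at 24 °C. Over all genes the shares were 8.48% higher after incubation, 7.66% higher and 8.75% lower at 16 °C, and 8.37% lower at 24 °C. A single gene out of 8 is near these shares. The 2 genes higher at 16 °C stood above the share, but 1 of them was DNAJB5, at 1.43.

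**Figure D2:**
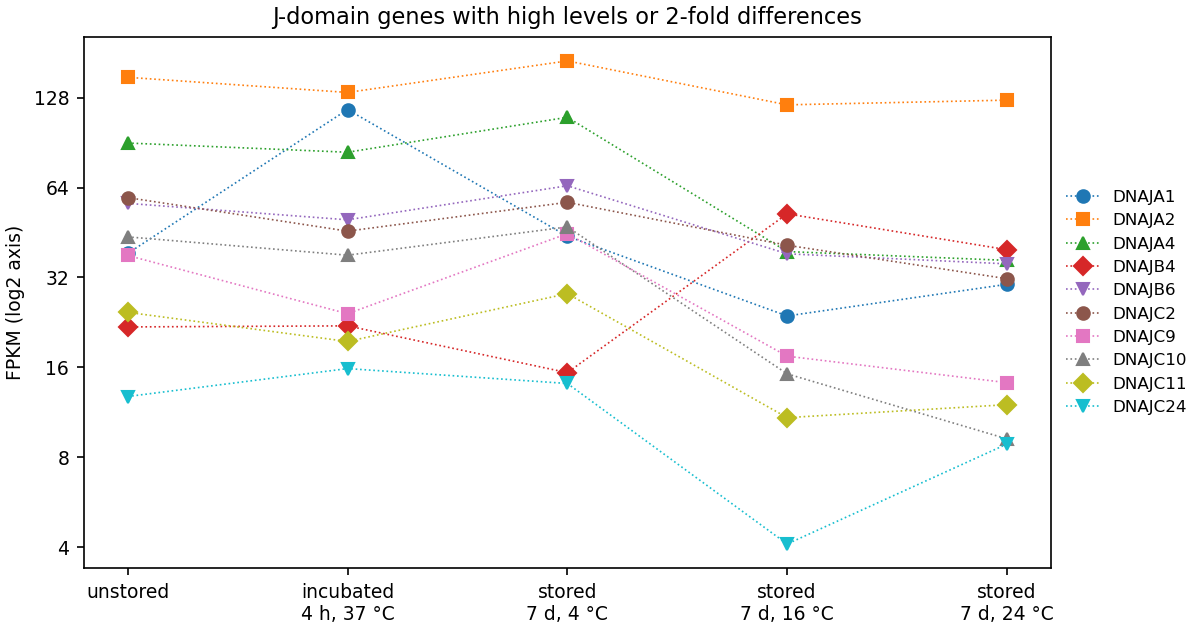
FPKM of 10 J-domain genes in the 5 libraries, on a log2 axis, with 1 point per library; dotted lines only connect points of a gene. DNAJA1 peaks in the incubated library at 116.8, DNAJB4 at 16 °C at 52.3, and DNAJC10 and DNAJC9 are lowest at 24 °C with 9.22 and 14.2.

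J-domain proteins of the endoplasmic reticulum did not move together. DNAJC10 (ERdj5), a disulfide reductase that serves the removal of misfolded proteins, had 43.7 in the unstored library, 38.0 after incubation, 47.2 at 4 °C, 15.2 at 16 °C and 9.22 at 24 °C. Its log2 ratio of -2.13 at 24 °C was the lowest of all members, with 41 of 7690 genes lower still, and at 16 °C it was -1.46. DNAJC25, a membrane J-domain protein, had 12.2, 20.9, 16.4, 7.35 and 5.05 in the unstored, incubated, 4, 16 and 24 °C libraries, with ratios of 0.73 after incubation and -1.12 at 24 °C.

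The other luminal partners of HSPA5 (BiP) differed less. DNAJB11 (ERdj3), which binds unfolded clients of BiP, had 22.1 in the unstored library, 28.9 after incubation, 24.4 at 4 °C, 26.4 at 16 °C and 25.5 at 24 °C. DNAJC3 (P58IPK), a further BiP partner and a target of the unfolded protein response, had 15.3, 24.3, 15.7, 21.3 and 23.8 in that order, with ratios of 0.63, 0.03, 0.45 and 0.61. DNAJB9 (ERdj4), also such a target, had 18.4, 13.0, 13.9, 19.1 and 11.1, with 0.05 at 16 °C and -0.68 at 24 °C. HSPA5 itself had 187 unstored and 1334 at 16 °C (2.83). None of its J-domain partners measured here was at least 2-fold higher in that library, beside 7.66% of all genes. Among so few genes, a count of none is near this share.

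Of the membrane members, DNAJB14 had 15.7 without storage and 23.6 and 27.5 after storage at 16 and 24 °C (0.56 and 0.77). Its relative DNAJB12 had 14.6, 10.5 and 8.36 (-0.44 and -0.74). Both are anchored in the membrane with the J domain towards the cytosol, and these paralogs had opposite signs at both temperatures. DNAJC18 had 36.4, 40.1 and 26.2 (0.14 and -0.46), and DNAJC16 11.0, 16.1 and 13.4 (0.51 and 0.27). Over the 9 genes of this group, none was 2-fold different after incubation or at 4 °C. Of all genes, 8.48% were higher and 2.55% lower by that size after incubation, and 0.637% and 0.0909% at 4 °C. Among so few genes, a count of none is near these shares. In the group, 1 was lower at 16 °C and 2 at 24 °C, beside 8.75% and 8.37% of all genes. The group medians were 0.14 at 16 °C and -0.46 at 24 °C.

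J-domain proteins of mitochondria were mostly lower than unstored after storage at 16 and 24 °C, where 52.0% and 48.2% of all genes were lower. DNAJC11, a protein associated with the cristae-organizing machinery, had 24.5 in the unstored library, 19.5 after incubation, 28.2 at 4 °C, 10.9 at 16 °C and 12.0 at 24 °C. Its ratios at 16 and 24 °C were -1.10 and -0.97. DNAJC15 and DNAJC19, related proteins of the import motor at the inner membrane, differed from each other. DNAJC15 had 7.80, 3.42 and 6.76 in the unstored, 16 and 24 °C libraries (-0.99 and -0.18). DNAJC19 had 5.60, 7.51 and 11.1 (0.37 and 0.88).

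The lower DNAJC15 value at 16 °C lay in both of its transcripts but unequally, with 1 from 2.96 to 0.16 and the other from 4.84 to 3.26. DNAJC30, linked in human to the turnover of complex I subunits, was at 4.55 in the unstored library, 2.0 after incubation, 1.85 at 4 °C, 2.24 at 16 °C and 0.53 at 24 °C. By the ratio of FPKM + 1, it was the only J-domain gene at least 2-fold different between 24 and 16 °C (-1.08), at levels where the pseudocount weighs on the ratio. Without the pseudocount, DNAJC24 also differed, with a fold of 2.16 for 24 over 16 °C. DNAJC28 had 2.0, 0.79 and 0.58 in the unstored, 16 and 24 °C libraries (-0.75 and -0.93) and stayed at or below 2.07. Of the 5 genes, by the ratio of FPKM + 1, DNAJC11 was past 2-fold at 16 °C and DNAJC30 at 24 °C. This was 1 gene each, beside 8.75% and 8.37% of all genes lower, with group medians of -0.78 and -0.93. Without the pseudocount, FPKM folds at 16 °C were 0.44 for DNAJC11 and DNAJC15, 0.395 for DNAJC28, 0.49 for DNAJC30 and 1.34 for DNAJC19. At 24 °C they were 0.49, 0.87, 0.29, 0.12 and 1.99 in that order. The share of all genes by that measure was not counted.

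**Figure D3:**
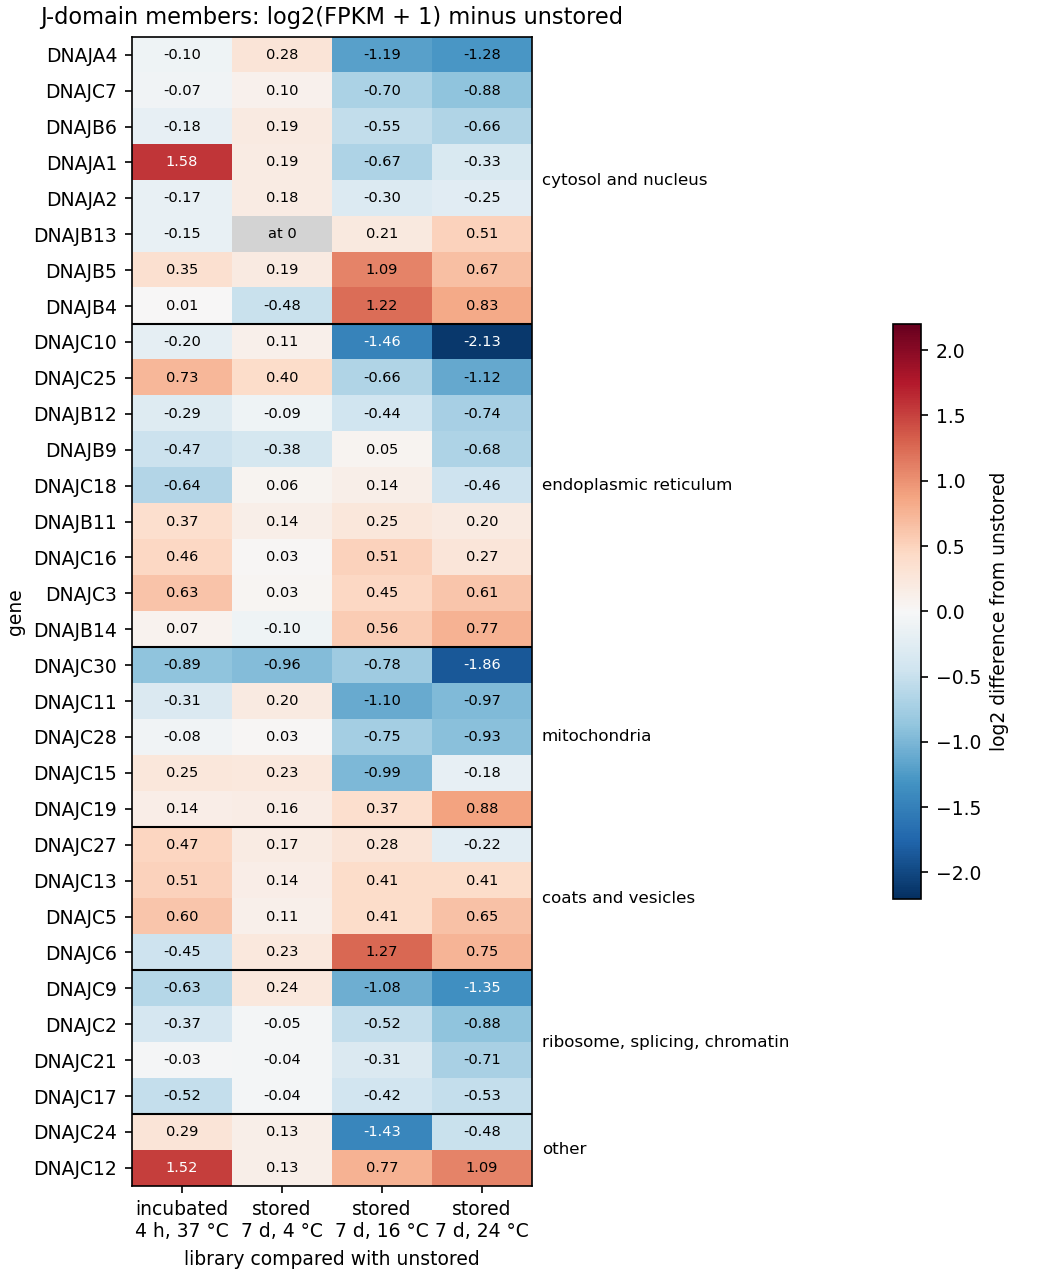
Differences from the unstored library in log2(FPKM + 1) for the 32 J-domain genes that passed the filter (rows, grouped by place in the cell and sorted within a group by the value at 24 °C) in the 4 other libraries (columns). Blue is lower and red higher, and grey marks a gene listed at 0. The column for 4 °C is pale apart from DNAJC30 at -0.96, with the other values between -0.48 and 0.40. The deepest blue is DNAJC10 (-1.46) and DNAJC24 (-1.43) at 16 °C, and DNAJC10 (-2.13) and DNAJC30 (-1.86) at 24 °C.

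Members of clathrin coats, secretory vesicles and endosomes had medians above 0 in all 4 comparisons. DNAJC6 (auxilin), which recruits HSP70 to strip clathrin from vesicles, had 2.96 in the unstored library, 1.89 after incubation, 3.63 at 4 °C, 8.54 at 16 °C and 5.66 at 24 °C. It was 1.27 higher at 16 °C and 0.75 higher at 24 °C on the log2 scale. GAK, a kinase with an auxilin-like J domain that falls outside the symbol rule, had 14.0 in the unstored library, 26.2 after incubation, 13.6 at 4 °C, 41.9 at 16 °C and 45.1 at 24 °C (1.52 and 1.62 at the last 2). DNAJC5 (cysteine string protein), a chaperone of exocytosis, had 13.2, 20.6, 14.4, 17.9 and 21.3 in the unstored, incubated, 4, 16 and 24 °C libraries. DNAJC13 (RME-8), an endosomal protein, had 9.88, 14.5, 11.0, 13.4 and 13.4, and DNAJC27, a Rab-like GTPase with a J domain, had 11.7, 16.6, 13.4, 14.5 and 9.91. Below unstored were DNAJC6 after incubation (-0.45) and DNAJC27 at 24 °C (-0.22). The group medians over 4 genes were 0.49 after incubation, 0.16 at 4 °C, 0.41 at 16 °C and 0.53 at 24 °C. Those of all genes were 0.12, 0.10, -0.04 and 0.04 in that order, so the value at 4 °C was near that of all genes.

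Members that work at the ribosome, in splicing or on chromatin, 4 in number, were all lower than unstored in the incubated, 16 and 24 °C libraries, as were 41.4%, 52.0% and 48.2% of all genes. DNAJC9, which handles histones H3 and H4, had 37.9 in the unstored library, 24.2 after incubation, 44.9 at 4 °C, 17.4 at 16 °C and 14.2 at 24 °C. Its ratios were -0.63, 0.24, -1.08 and -1.35. DNAJC2, which sits on the ribosome and assists new chains with HSP70, had 59.2, 45.7, 57.1, 41.0 and 31.7 in the same order (-0.88 at 24 °C). DNAJC21, a factor of large ribosomal subunit assembly in human cells, had 14.9 unstored and 8.70 at 24 °C (-0.71), and DNAJC17, a splicing-associated protein, 15.7 and 10.5 (-0.53). The group medians were -0.44, -0.04, -0.47 and -0.80 after incubation and at 4, 16 and 24 °C.

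DNAJC12 and DNAJC24 belong to none of these groups. DNAJC12, a co-chaperone of aromatic amino acid hydroxylases, had 1.17 in the unstored library, 5.23 after incubation, 1.37 at 4 °C, 2.70 at 16 °C and 3.63 at 24 °C. Its ratios after incubation and at 24 °C were 1.52 and 1.09, from low values. DNAJC24 (DPH4), which acts in the synthesis of diphthamide on elongation factor 2, had 12.8, 15.9, 14.1, 4.10 and 8.86 in the same order. It was 2-fold lower at 16 °C (-1.43) and not at 24 °C (-0.48), and the ratio of 24 to 16 °C was 0.95.

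BAG genes gave no common direction. BAG1, an exchange factor that also links HSP70 to the proteasome, had 23.9 in the unstored library, 11.0 after incubation, 21.8 at 4 °C, 15.3 at 16 °C and 12.9 at 24 °C. Its lowest value and the highest of BAG2 were both in the incubated library. BAG2, which inhibits the ubiquitin ligase STUB1 (CHIP), had 2.49, 8.20, 3.19, 2.65 and 5.16 in that order. The ratios after incubation were -1.06 for BAG1 and 1.40 for BAG2, and with a pseudocount of 5 they were -0.86 and 0.82, within 2-fold. BAG5 had 7.37, 4.31, 5.30, 11.6 and 12.3, with ratios of -0.66 after incubation and 0.59 and 0.67 at 16 and 24 °C. STUB1, which ubiquitinates clients of HSP70, had 26.4 unstored, and 41.6 and 60.6 after storage at 16 and 24 °C (0.64 and 1.17).

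Prefoldin genes were modestly lower in most libraries. All 4 were below unstored after incubation and at 16 °C, and 3 at 24 °C, where 41.4%, 52.0% and 48.2% of all genes were. None was 2-fold different from unstored. At most 8.75% of all genes were lower and 10.5% higher by that size in any library, so none among 4 genes is near these shares. PFDN5 had 39.7 in the unstored library, 30.3 after incubation, 35.8 at 4 °C, 29.9 at 16 °C and 28.0 at 24 °C. PFDN4 had 37.4, 24.0, 34.0, 26.0 and 26.0 in that order, and PFDN2 22.7, 15.7, 20.1, 12.2 and 15.2. PFDN1 had 13.4, 12.9, 11.2, 9.48 and 13.9 and was the only subunit above its unstored value in any library, at 24 °C by 0.05 on the log2 scale. The medians were -0.44 after incubation, -0.15 at 4 °C, -0.48 at 16 °C and -0.50 at 24 °C. Every subunit was lower at 4 °C, where 30.9% of all genes were lower, by -0.24 to -0.13. PFDN6 and VBP1, the gene of the remaining subunit, were not analysed here.

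**Figure D4:**
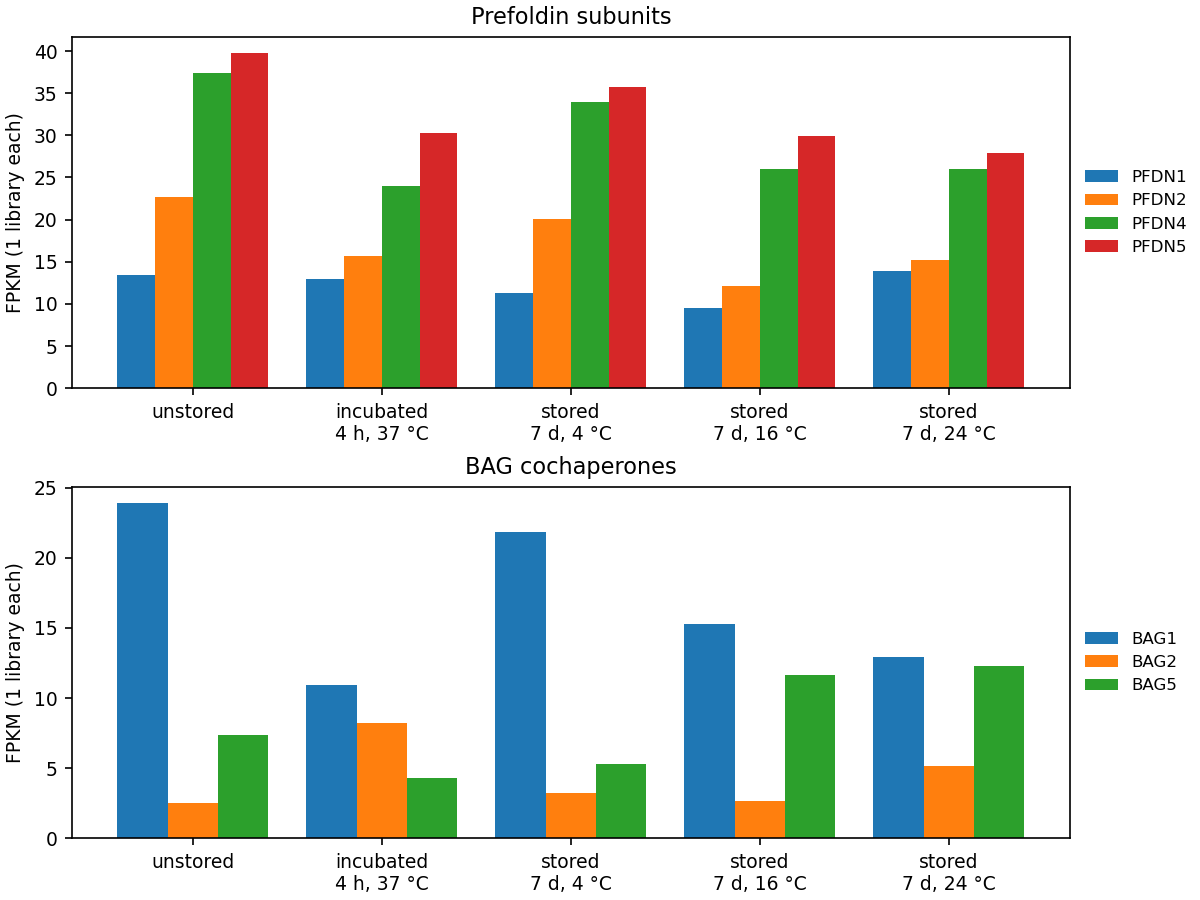
FPKM of the 4 prefoldin subunits (top) and 3 BAG genes (bottom) in the 5 libraries; each bar is 1 library, with no replicate error. Prefoldin bars are highest in the unstored library for PFDN2, PFDN4 and PFDN5, and BAG1 is highest there at 23.9 while BAG2 is highest after incubation at 8.20.

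The chaperonin subunits were among the most abundant of the members. In the unstored library their FPKM lay between 215 for CCT4 and 366 for CCT2, and their median of 286 was above 98.4% of all genes. Summed over the 7 subunits, FPKM was 2056 in the unstored library, 1706 after incubation, 2261 at 4 °C, 1130.3 at 16 °C and 1060 at 24 °C. This was 0.562% of the FPKM of the unstored library, 0.473% after incubation, 0.581% at 4 °C, 0.338% at 16 °C and 0.318% at 24 °C.

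CCT2 had 366 in the unstored library, 289 after incubation, 381 at 4 °C, 242 at 16 °C and 228 at 24 °C. Among the subunits measured, which leave out CCT3, it was the highest in every library. CCT5, the second highest throughout, had 359, 275, 376, 232 and 198 in the same order. These had the smallest differences of the family at 16 °C, -0.59 and -0.63. CCT4 was the lowest measured subunit in every library, with 215, 179, 244, 87.4 and 77.8. Its ratios of -1.29 at 16 °C and -1.45 at 24 °C were the lowest of the family, with 223 of 7690 genes lower still at 24 °C.

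TCP1, the subunit that gave the complex its name, had 237 in the unstored library, 229.8 after incubation, 275 at 4 °C, 115 at 16 °C and 122 at 24 °C. CCT6A had 285, 274, 349, 135 and 136 in the same order. CCT7 had 307, 241, 327, 168 and 143, and CCT8 286, 218, 309.7, 151 and 155. In each of the 7 subunits the values at 16 and 24 °C lay below those of the other 3 libraries, and the value at 4 °C was the highest of the 5. The 4 °C library also had the largest FPKM total, 389061 against 366057 unstored. The 16 and 24 °C libraries had the smallest totals, 334081 and 333528. The share of all genes with either pattern was not counted.

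At 16 °C, 3 of the 7 were at least 2-fold lower (CCT4, CCT6A at -1.08 and TCP1 at -1.04), beside 8.75% of all genes. At 24 °C, 3 of 7 were lower by that size (CCT4, CCT7 at -1.10 and CCT6A at -1.06), beside 8.37% of all genes. All 7 were below unstored at both temperatures, where 52.0% and 48.2% of all genes were. The family lay between -1.29 and -0.59 for 16 °C, and between -1.45 and -0.68 for 24 °C. With each library rescaled to the same FPKM total, only CCT4 remained past 2-fold at either temperature. That scaling also moved the median of all genes, to 0.08 at 16 °C and 0.17 at 24 °C. The share of all genes past 2-fold under it was not counted. After incubation all 7 were lower too, by -0.39 to -0.05 with a median of -0.34, where 41.4% of all genes were lower. At 4 °C all 7 were higher by 0.06 to 0.29, beside 68.7% of all genes, but the median of 0.11 matched the shift of all genes and became -0.01 with median-ratio size factors.

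The 7 measured subunits lay further apart at 16 and 24 °C. The ratio of the highest to the lowest subunit, CCT2 to CCT4, was 1.70 in the unstored library, 1.62 after incubation, 1.56 at 4 °C, 2.78 at 16 °C and 2.93 at 24 °C. The share of CCT4 in the summed chaperonin FPKM was 10.5% unstored, and 7.73% and 7.34% at those temperatures, while CCT2 went from 17.8% to 21.5% in both. CCT2 and CCT4 both belong to the side of the ring that binds ATP more tightly in yeast.

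**Figure D5:**
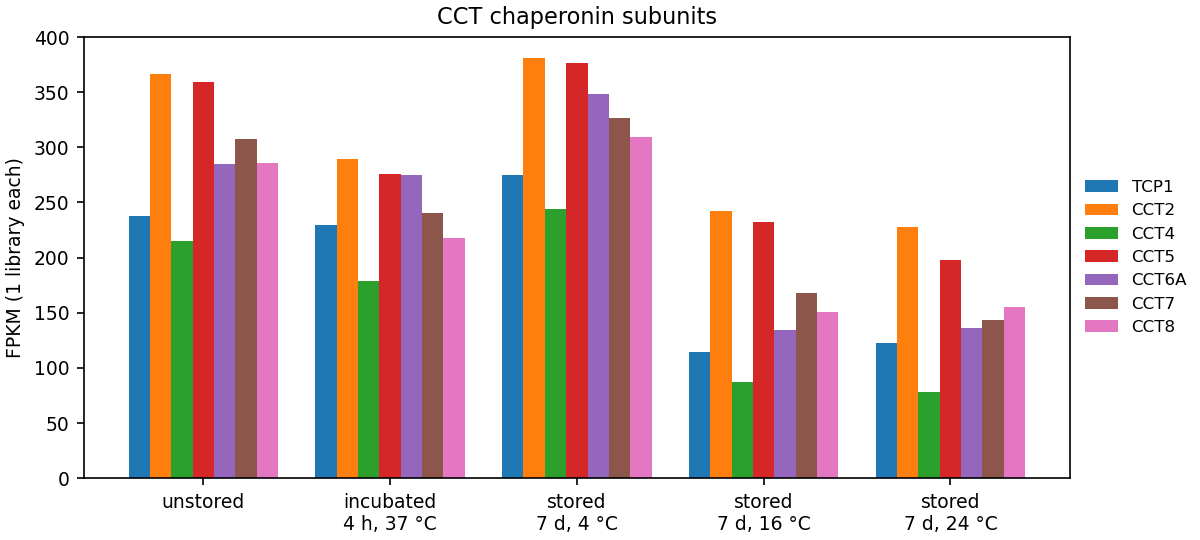
FPKM of the 7 measured CCT chaperonin subunits in the 5 libraries; each bar is 1 library, with no replicate error. All bars at 16 and 24 °C are lower than those of the same subunit elsewhere, and CCT2 is highest and CCT4 lowest in each library.

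The stored libraries were also set against each other. Between 24 and 16 °C the chaperonin ratios lay between -0.23 and 0.09 and none was 2-fold different, beside 2.83% of all genes higher and 1.23% lower. Of 32 J-domain genes, by the ratio of FPKM + 1, none was higher and 1, DNAJC30, was lower. Against the library at 4 °C, 4 of 7 subunits were past 2-fold in the lower direction at 16 °C, as were 4 of 7 at 24 °C, beside 13.0% and 11.7% of all genes. CCT4, CCT6A and TCP1 were among them at both temperatures, with CCT8 (-1.03) at 16 °C and CCT7 (-1.19) at 24 °C. Of 31 J-domain genes, 7 were lower and 2 higher at 16 °C than at 4 °C, where 7.28% of all genes were higher. At 24 °C against 4 °C, 5 were lower and 1, DNAJB4 (1.31), was higher, beside 9.52% of all genes. BAG5 was higher than at 4 °C by just over 2-fold both at 16 °C (1.005) and at 24 °C (1.08).

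Storage was last compared with incubation. The library at 4 °C differed from the incubated one in DNAJA1 (-1.39), DNAJC12 (-1.39) and BAG2 (-1.13), beside 4.74% of all genes lower and 2.84% higher, and its 7 chaperonin ratios lay between 0.26 and 0.51. At 16 °C, 6 of 32 J-domain genes were lower and 2 higher than after incubation, beside 14.3% and 5.44% of all genes, and DNAJA1 had the lowest ratio (-2.25). DNAJC6 (1.72) and DNAJB4 (1.21) were the higher ones. At 24 °C, 4 were lower and 1 higher, beside 10.2% and 5.40%, led by DNAJC10 (-1.93) and DNAJA1 (-1.91). CCT4 (-1.03 and -1.19) and CCT6A (-1.02 and -1.01) were the subunits past 2-fold in the lower direction, at 16 and 24 °C respectively. Of the BAG genes, BAG2 was lower by that size at 16 °C (-1.33), and BAG5 was higher at 16 °C (1.25) and 24 °C (1.32). These comparisons reuse the same 5 libraries and are not independent of those with the unstored library.

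Partners of these families outside the symbol rule were described by lists. Of 12 measured HSP70 proteins and cofactors, 3 (HSPA8, HSPH1 and GRPEL1) were past 2-fold in the lower direction at each of the warmer storage temperatures, HSPA5 was higher at 16 °C, and STUB1 at 24 °C. Among all genes, 8.75% and 8.37% were lower and 7.66% and 10.5% higher by that size at 16 and 24 °C. The 12 include ST13, which was matched only through a synonym, to the symbol ST13P5 (-0.46 and -0.85). HSPH1, an HSP70 relative that exchanges nucleotide, had 112.8 unstored and only 14.4 and 11.5 at those temperatures. GRPEL1, the exchange factor of mitochondrial HSP70, went from 47.1 to 18.3 (-1.32) and 20.8 (-1.14). Of 13 genes of HSP90 and its cofactors, 6 were lower at each temperature, and 1, HSP90B1, was higher at 16 °C. The lower cofactors included AHSA1, an activator of the HSP90 ATPase (-1.39 and -1.34), FKBP4, an immunophilin (-1.43 and -1.08), PPID, a cyclophilin (-1.44 and -2.37), and NUDC (-1.47 and -1.93). Both genes of the mitochondrial chaperonin were lower, HSPE1 from 1350.2 to 534.5 (-1.34) and 531 (-1.34), and HSPD1 by more.

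Genes that act with the cytosolic chaperonin were mostly within 2-fold of unstored. Of 4 measured regulators none was 2-fold different, with PDCL3 at -0.83 and -0.72 and TXNDC9 at 0.68 and 0.54 at 16 and 24 °C. Of 7 measured cytoskeletal clients and tubulin cofactors none was 2-fold different either, with medians of -0.03 and -0.27. At 16 and 24 °C, 8.75% and 8.37% of all genes were lower and 7.66% and 10.5% higher by that size. Among so few genes, a count of none is near these shares. ACTB, cytoplasmic actin and a main client, had 2039 unstored, and 1567 and 1693 at these temperatures (-0.38 and -0.27). TUBB4B, a beta tubulin, had 175.5, 248 and 139 (0.50 and -0.33). RPAP3, a scaffold of the prefoldin-like R2TP complex, had 24.0 unstored, 9.79 at 16 °C (-1.21) and 13.3 at 24 °C (-0.80), and RUVBL1, an ATPase of that complex, was at -0.82 in the former. HSF2, a heat shock transcription factor, had 96.1 in the unstored library, 62.5 after incubation, 81.8 at 4 °C, 71.6 at 16 °C and 61.5 at 24 °C.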

How the data were processed

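The authors deposited FPKM values per RefSeq transcript accession for each library, per the file headers. Per the submitters' processing notes, the tools were Cufflinks 2.0.2 and TopHat2 2.0.8, whose roles they do not state, and the build was galGal4. No header or label names the annotation release. Depth is unknown, and an exact 0 can be a failed estimate.

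Accessions without version were matched to a RefSeq gene table of the assembly GRCg7b, whose coordinates were not used. Of 32188 rows, 12609 (39.2%) received a symbol, and rows of 1 symbol were summed. Of the members' 57 rows, 3 matched with the same version. Isoforms without a match are missing from a gene's value.

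Genes needed FPKM of at least 1 in 1 or more libraries, which kept 7733. Ratios were log2((FPKM + 1)/(FPKM + 1)), without a ratio where a library was listed at 0. The counting code was run on simulated data, with changes larger than the 2-fold limit in genes with FPKM of at least 5. That run checks the code only and says nothing of low genes or of differences near 2-fold. Python 3.11.15 and pandas 2.3.3 were used. Promoter and protein comparisons were planned, but no sequences were used here. The members and lists were chosen with earlier results of these data known. Named were all chaperonin, BAG and prefoldin genes, the 5 highest J-domain genes, J-domain genes 2-fold different from unstored with FPKM of at least 5 in either library, or 2-fold different between 16 and 24 °C, and examples of the lists. Alternatives were other pseudocounts, filters, scalings and ways to join rows.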

Additional observations from a re-analysis of the deposited data

Results flagged for a closer look

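In 3 genes, by the ratio of FPKM + 1, libraries differed from the unstored one in opposite directions by at least 1.5-fold on each side. With 1 library per condition these differences were not tested, and the share of all genes that met this rule was not counted. DNAJA1 was 1.58 higher on the log2 scale after incubation and stood at -0.67 at 16 °C. DNAJC25 stood at 0.73 after incubation and -1.12 at 24 °C. BAG5 went the other way, at -0.66 after incubation and 0.67 at 24 °C. Without the pseudocount DNAJC6 also met this rule, with FPKM folds of 0.64 after incubation and 2.89 at 16 °C. No gene of these families was on opposite sides by that size at different storage temperatures. The share of all genes that were was not counted either.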

How the results depend on the processing

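No paired analysis was possible because each condition has 1 library. No result changed sign among values past 2-fold. Of 256 recomputed medians and counts, 238 kept their value within 1.5-fold. That limit is wider than most of the medians, so a median could change sign and still count as kept. The chaperonin median at 4 °C went from 0.11 to -0.01 with median-ratio size factors. The BAG median at 16 °C went from 0.065 to -0.009 with a mean FPKM of at least 5. Counts of 0 under every setting were also among those kept. With FPKM rescaled to 1000000 per library, 1 chaperonin gene in place of 3 was at least 2-fold lower at 16 °C and 1 in place of 3 at 24 °C. The same setting gave 3 J-domain genes higher at 24 °C in place of 1, and 1 lower after incubation and 1 lower at 4 °C, both in place of 0. Counts of J-domain genes depended on the pseudocount, since many have low values. With a pseudocount of 5, 1 was higher after incubation, 1 at 16 °C and 0 at 24 °C, and 2 were lower at 16 °C and 3 at 24 °C. With 0.1, 2 were higher at 24 °C, and 1 was lower after incubation and 1 at 4 °C. With a mean FPKM of at least 5, 1 was higher after incubation, 1 at 16 °C and 0 at 24 °C, and the BAG median at 24 °C, then over 2 genes, was -0.086. With median-ratio size factors 1 J-domain gene was lower at 4 °C. The chaperonin median lay between -0.92 and -0.79 for 16 °C and between -1.02 and -0.82 for 24 °C over the settings. With a pseudocount of 5, every difference from unstored past 2-fold fell within it for BAG1, BAG2, DNAJB5, DNAJC6, DNAJC11, DNAJC12, DNAJC24, DNAJC25 and DNAJC30, as did that of DNAJC9 at 16 °C. CCT4, DNAJA4, DNAJC10 and, at 24 °C, DNAJC9 stayed past 2-fold under all 8 alternatives, as did DNAJA1 after incubation.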
